A study of Homo sapiens with 6 samples.

Results

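The genes described here encode the proteins of the cytosolic ribosome. They were chosen by name: protein-coding rows of the deposited count table whose symbol is RPL or RPS followed by a number with an optional final A or X, together with RPLP0, RPLP1, RPLP2 and RPSA. The rule took 77 of 28862 genes, 46 of the large (60S) subunit and 31 of the small (40S) subunit, spread over 21 chromosomes. The mRNA came from SH-SY5Y, a neuron-like line derived from a human neuroblastoma. The study looked for transcriptome changes under overexpression of SMN1, the gene for the survival motor neuron protein, and its title places them in the context of neuropathic pain. There were 3 libraries labelled as overexpressing SMN1 (the SMN1-labelled libraries) and 3 from cells with a control plasmid. The labels give no plasmid promoter, no time after transfection and no sign of whether replicates were separate cultures, so the p-values speak only to the spread among these 6 libraries, and that spread may be technical.

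A ribosome holds 1 copy of most of its proteins, and the cell must make them in matched amounts. In vertebrates nearly all of their mRNAs begin with a C followed by an unbroken run of pyrimidines, the terminal oligopyrimidine (TOP) tract, through which mTORC1 and the RNA-binding protein LARP1 control their translation and stability together. Ribosomal proteins that find no place in a ribosome are degraded, and RPL5 and RPL11, bound to 5S rRNA, can instead bind and inhibit MDM2, a ubiquitin ligase that holds back growth arrest. Loss of 1 copy of any of several of these genes causes Diamond-Blackfan anaemia.

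The libraries held 31740870 to 40275498 reads assigned to genes in the SMN1-labelled group and 30379242 to 31286361 in the control group. SMN1 itself had 494, 691 and 547 reads in the SMN1-labelled libraries and 602, 624 and 568 in the control libraries, which is 14.7, 16.6 and 16.6 CPM against 20.03, 20.4 and 19.6 CPM (CPM being a gene's reads relative to the total of its library, scaled by TMM factors). The gene named in the label was therefore lower, not higher, in the libraries that carry it (log2 fold change -0.32, edgeR quasi-likelihood adjusted p = 9.40e-05), and every direction given here is between libraries as labelled. SMN2, a near-identical copy between which and SMN1 reads could be split, was lower as well (-0.30, adjusted p = 0.00311). Of 8 adrenergic neuroblastoma markers, 7 were expressed well enough to test, and their summed level was 4931 to 5164 CPM in the SMN1-labelled and 4811 to 4963 CPM in the control libraries. TH, the first enzyme of catecholamine synthesis, was near 0 in both groups. The 7 mesenchymal markers summed to 69.2 to 76.1 CPM in the SMN1-labelled libraries and 107 to 109 CPM in the control libraries, with 4 of 6 tested lower. The genes of the mitochondrial genome took 4.85% ± 0.0575 of reads in the SMN1-labelled and 6.18% ± 0.209 in the control libraries. The part of either difference in the results for ribosomal protein genes was not tested. In bulk samples such as these, fewer cells of a type and less RNA per cell cannot be told apart.

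The sequence around the annotated start of transcription is shown for the 5 members that were lowest relative to control, the 5 called members nearest to no change, RPL26, which did not pass the test, RPS27 with its paralog RPS27L, and the elongation factor gene EEF1A1, whose mRNA also has a TOP tract. Each line holds the 15 bases before and the 15 bases from the start in RefSeq on GRCh38.p14, read 5′ to 3′ on the gene's strand. Capitals mark the run nearest the start that begins with C and goes on with at least 4 of C or T, and 30 bases are shown so that a run that begins off the annotated start, as in RPS26 and RPS28, can be seen.
RPS26, chr12:56041903-56041932, plus strand: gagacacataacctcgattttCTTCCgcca
RPS28, chr19:8321481-8321510, plus strand: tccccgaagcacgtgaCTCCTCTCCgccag
RPL35, chr9:124861943-124861972, minus strand: agccccgcctacttcCTCTTTCCCTCggag
RPL12, chr9:127451392-127451421, minus strand: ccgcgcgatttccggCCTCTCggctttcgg
RPL18, chr19:48619164-48619193, minus strand: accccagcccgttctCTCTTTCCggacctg
RPL22, chr1:6199581-6199610, minus strand: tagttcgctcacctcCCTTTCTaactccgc
RPL39, chrX:119791616-119791645, minus strand: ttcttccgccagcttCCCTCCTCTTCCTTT
RPS25, chr11:119018329-119018358, minus strand: tctgagcagcgcttcCTTTTTgtccgacat
RPL41, chr12:56116618-56116647, plus strand: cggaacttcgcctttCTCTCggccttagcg
RPS27A, chr2:55232673-55232702, plus strand: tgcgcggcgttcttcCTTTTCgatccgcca
RPL26, chr17:8383179-8383208, minus strand: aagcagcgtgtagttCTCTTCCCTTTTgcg
RPS27, chr1:153990747-153990776, plus strand: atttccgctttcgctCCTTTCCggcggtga
RPS27L, chr15:63157463-63157492, minus strand: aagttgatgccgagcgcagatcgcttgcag
EEF1A1, chr6:73521018-73521047, minus strand: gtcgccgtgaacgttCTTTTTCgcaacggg

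RefSeq start sites were held for 62 of the 77 members, and 46 of these (74.2%) had at least 1 start with the C exactly at its first base and 4 or more pyrimidines after it, against 7.05% of the tested genes outside the members that the RefSeq table holds. Within 15 bases of the start such a run was present for 95.2% of members and 51.0% of the other tested genes, so the looser window says little. The exact start did not sort the members by their change: the 45 tested members with it had a median log2 fold change of -0.40 and the 16 without it -0.39. Between 250 bases before and 50 after the start, on either strand, the YY1 core GATGGC was found for 35.5% of members and 18.5% of the other tested genes, and the ETS motif CCGGAAG for 35.5% and 21.9%. The SP1 motif GGGCGG was found for 58.1% of members and 77.4% of the others, and TATAAA for 8.06% and 8.20%. Members with and without the YY1 letters had medians of -0.39 and -0.42, and for the ETS letters both medians were -0.40. A match is a match of letters and not a binding site.

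Ribosomal protein mRNAs were lower in the SMN1-labelled libraries almost throughout. Of the 76 members tested, 72 were called lower, none was called higher and 4 did not pass (edgeR quasi-likelihood test, Benjamini-Hochberg adjusted p at most 0.05 over 15829 genes). Over all genes tested, 28.2% were called lower and 28.0% higher. The remaining member, RPS10, had 3 to 9 reads per library and was removed by the filter on low counts. The fitted fold change was below 0 for each of the 76, with a median of -0.39 on the log2 scale (quartiles -0.50 and -0.26), against a median of 0.00089 over all genes tested. The median member thus stood at 76.1% of its control level. For 69 members the highest SMN1-labelled library was still lower than the lowest control library, which held for 30.2% of all genes tested, and for the other 7 the groups overlapped. DESeq2 called 68 members lower (20.6% of the genes with an adjusted p), and limma on log2(FPKM + 1) without a filter called 60 (10.3% of genes). The fit with the replicate number as a block called 71 (27.7% of genes).

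**Figure D1:**
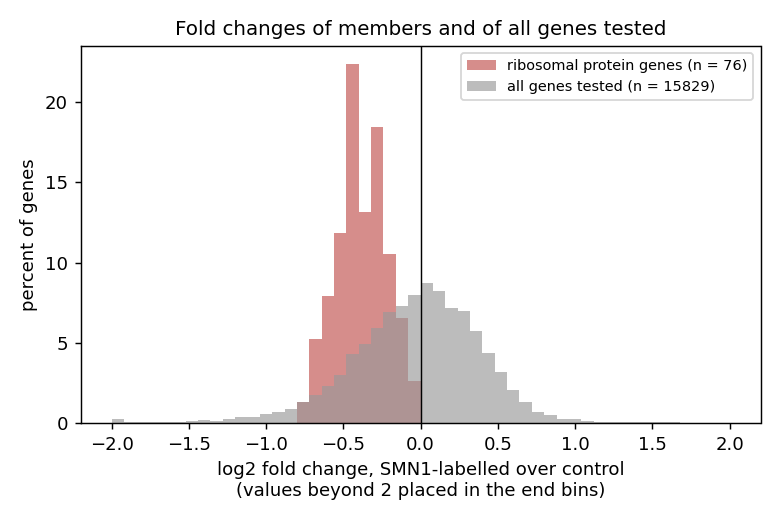
Percent of genes (y axis) by log2 fold change, SMN1-labelled over control (x axis), for the 76 tested ribosomal protein genes and all 15829 genes tested. The members form a narrow band below 0, with a median of -0.39, while all genes spread on both sides of 0.

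The size of the change was modest. The largest fall was 1.655-fold, 11 of the 76 members fell by at least 1.5-fold (7.76% of all genes tested were called lower by that much), and none by 2-fold. The subunits had similar medians: 43 of 46 large subunit members were lower with a median log2 fold change of -0.38, and 29 of 30 tested small subunit members were lower with a median of -0.40. Relative to the mean of the control libraries, the median member was at -0.36, -0.40 and -0.39 on the log2 scale in SMN1-labelled libraries 1, 2 and 3, and within 0.014 of 0 in each control library. The 77 genes took 5.17%, 5.13% and 5.12% of all reads in the SMN1-labelled libraries, against 6.39%, 6.29% and 6.24% in the control libraries. These shares did not overlap, and the SMN1-labelled mean was 81.5% of the control mean. As a share of the reads outside the mitochondrial genome they were 5.40% ± 0.0211 and 6.72% ± 0.0697 (SD, n = 3 each).

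**Figure D2:**
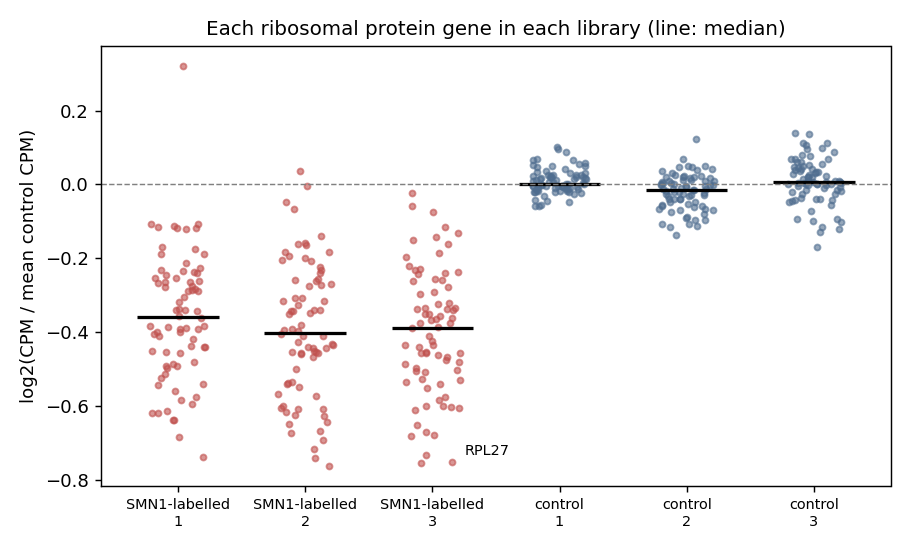
log2 of each tested member's CPM over its mean control CPM (y axis) in each of the 6 libraries (x axis); each point is 1 gene and the line is the median. The 3 SMN1-labelled medians lie between -0.36 and -0.40, and RPL27 in SMN1-labelled library 3 stands apart from its replicates.

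Base composition moved with the members' changes. Members with higher GC content in their longest transcript fell more (Spearman's rho -0.55 over 76 genes of the same 6 libraries), and there was little relation to exonic length (rho 0.08). The members had a median GC content of 48.0% and a median exonic length of 3119.5 nt, against 48.8% and 4575 nt over all genes tested. With trends of length and GC content removed within each library, 66 of 76 members were called lower and none higher, where 22.8% of all genes tested were called lower and 26% higher, and the median log2 fold change was -0.33. The family was thus still lower in that fit, but its order changed. Of the 72 called members 36 moved by over 1.5 times, 27 of them nearer to 0 and 9 farther from it. The lengths used were of all annotated exons joined and not of the main mRNA, so a trend with the latter may remain. RPL35 stood at -0.28 in that analysis, RPS28 at -0.37, RPL8 and RPS15 at -0.29, RPLP2 at -0.21 and RPS2 at -0.17, while RPS24 at -0.70 and RPS29 at -0.64 were the lowest and RPS26 stayed at -0.61. The correction reversed the relation to GC content within the family (rho 0.33) and brought in one to length (rho -0.65). The part of base composition in the order of the members was not tested further, and the values that follow are without the correction unless it is named.

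Within the large subunit, the P stalk, the flexible arm that draws translation factors to the ribosome, was lower in each of its parts. RPL12, which forms its base with RPLP0, had 773, 826 and 865 CPM in the SMN1-labelled libraries and 1285, 1308 and 1273 CPM in the control libraries. The groups lay well apart, a 1.57-fold fall (log2 fold change -0.65, SE 0.04, edgeR adjusted p = 7.61e-13). RPLP1 and RPLP2, the acidic proteins that pair on the arm, were at 394 ± 7.64 and 1147 ± 31.0 CPM in the SMN1-labelled libraries and at 570 ± 20.2 and 1668 ± 102 CPM in the control libraries. Both fell by close to the same factor, 1.45-fold. The match was lost after the length and GC correction, where RPLP1 stood at -0.52 and RPLP2 at -0.21 on the log2 scale. RPLP0, the scaffold of the arm, was at 1102 ± 43.7 CPM in the SMN1-labelled and 1443 ± 62.9 CPM in the control libraries and fell 1.31-fold. All 4 were also called lower after the length and GC correction, with a median log2 fold change of -0.39 against -0.54 without it.

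RPL5 and RPL11 join the ribosome together with 5S rRNA, and both fell. RPL11 had 459, 480 and 471 CPM in the SMN1-labelled libraries and 640, 624 and 670 CPM in the control libraries (log2 fold change -0.46, SE 0.03, edgeR adjusted p = 1.02e-10). RPL5, the more abundant by reads, had 2434, 2529 and 2446 CPM in the SMN1-labelled libraries and 2826, 2919 and 3021 CPM in the control libraries (log2 fold change -0.24, SE 0.03, adjusted p = 1.32e-06). Neither gene's groups overlapped. Of the genes that act with this particle, RRS1 and NOP53, which serve the particle's assembly in the nucleolus, fell with log2 fold changes of -0.57 and -0.42, and so did RPF2 (-0.19). MDM2 rose 1.35-fold to 23.8 ± 1.24 CPM in the SMN1-labelled libraries, against 17.6 ± 0.807 CPM in the control libraries, CDKN1A, a cell cycle inhibitor, rose with a log2 fold change of 0.35, and MDM4 did not pass (0.06). With length and GC content corrected for, MDM2 stood at 0.20 and CDKN1A at 0.59, both still called higher, and MDM4 was called lower (-0.17, edgeR adjusted p = 0.0129). RRS1 stood at -0.27, NOP53 at -0.28, RPF2 at -0.33 and RPL5 at -0.38 in that fit, each still called lower.

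The proteins around the exit of the peptide tunnel spanned nearly the whole range of the family. RPL35, where factors that act on the emerging chain dock, had 654, 622 and 626 CPM in the SMN1-labelled libraries and 1003, 1003 and 1005 CPM in the control libraries. Its control libraries were almost identical, and it fell 1.58-fold (log2 fold change -0.66, SE 0.03, edgeR adjusted p = 6.84e-14). RPL19 fell 1.47-fold, RPL23A 1.27-fold, RPL31 1.16-fold and RPL39 1.12-fold, and RPL17 and RPL26 did not pass. The median of these 7 was -0.21, nearer 0 than that of the family, with values from -0.66 to -0.03. After the length and GC correction RPL35 stood at -0.28, RPL23A at -0.22 and RPL31 at -0.32, and RPL39 was no longer called (-0.08, edgeR adjusted p = 0.113). In that fit the values ran only from -0.42 for RPL19 to -0.02 for RPL26, where RPS24, the lowest member of the family, stood at -0.70.

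In the small subunit the members that line the mRNA channel all fell. RPS26, which contacts mRNA just upstream of the start codon, fell furthest of all members: it had 75.9, 73.0 and 72.3 CPM in the SMN1-labelled libraries and 120, 124 and 122 CPM in the control libraries (log2 fold change -0.73, SE 0.04, edgeR adjusted p = 9.42e-14). The groups lay far apart with little spread within either. RPS28, its neighbour at the mRNA exit, was at 16.6 ± 1.48 CPM in the SMN1-labelled and 26.7 ± 0.478 CPM in the control libraries and fell 1.61-fold. RPS2 and RPS3, at the mRNA entry, fell 1.35-fold and 1.24-fold, RPS14 1.26-fold and RPSA, which is also known as the laminin receptor, 1.34-fold. TSR2, the chaperone that delivers RPS26, fell as well, with a log2 fold change of -0.33, a call that did not hold after correction for gene length and GC content (-0.06, edgeR adjusted p = 0.116).

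Other members with falls of 1.5-fold or more were RPL18, RPL10, RPL13, RPL28, RPL8, RPS15 and RPL32. RPL10 completes the large subunit late in its assembly, and RPL18 had 109, 102 and 109 CPM in the SMN1-labelled libraries and 179, 165 and 156 CPM in the control libraries. Of the 17 tested members mutated in Diamond-Blackfan anaemia 15 fell, among them RPS19, the gene most often affected, with 324 ± 7.70 CPM in the SMN1-labelled and 392 ± 12.9 CPM in the control libraries (log2 fold change -0.28, and -0.09 after the length and GC correction). Of 27 members whose introns hold small nucleolar RNAs 26 fell, and their median log2 fold change was -0.40. Neither share stands far from the 72 of 76 of the whole family.

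**Figure D3:**
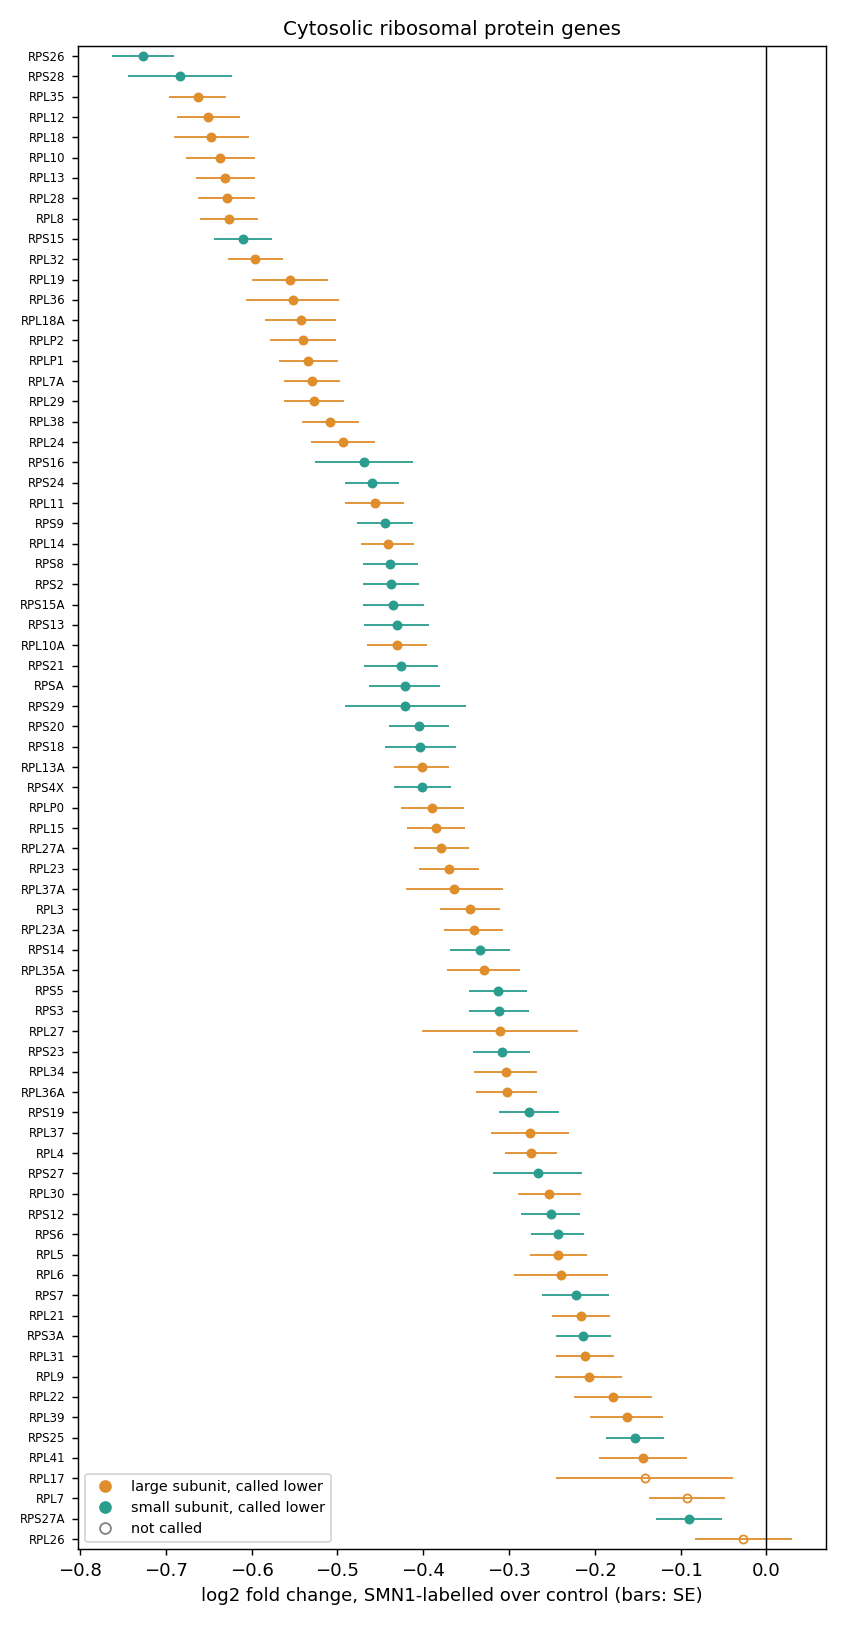
log2 fold change, SMN1-labelled over control, with its standard error (x axis) for 74 of the 76 tested members in order (y axis). Filled points were called lower and open points were not called; each point lies below 0, from -0.73 for RPS26 to -0.03 for RPL26.

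The called members nearest to no change were RPL22, RPL39, RPS25, RPL41 and RPS27A, with log2 fold changes of -0.18, -0.16, -0.15, -0.14 and -0.09. RPL41 encodes the smallest of the proteins, and it had 137, 142 and 124 CPM in the SMN1-labelled libraries and 144, 138 and 163 CPM in the control libraries. Its groups overlapped, and the call (edgeR adjusted p = 0.02) was lost without control library 3 (0.22) or SMN1-labelled library 3 (0.141). RPL41 was called lower in 13 of the 20 alternative analyses, RPL39 and RPS25 in 16 each and RPL22 in 17. RPS27A, made as a fusion with ubiquitin, had 154, 161 and 154 CPM in the SMN1-labelled libraries and 166, 159 and 175 CPM in the control libraries. It overlapped too, and its call (adjusted p = 0.048) was lost in 11 of the 20 alternative analyses, with adjusted p of 0.101 and 0.256 without control library 1 or 3 and 0.106 and 0.134 without SMN1-labelled library 1 or 3. After correction for gene length and GC content RPL41 and RPS25 stood above 0 (log2 fold changes 0.03 and 0.07), neither past the threshold.

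RPL17, RPL7 and RPL26 were among the 4 members that did not pass. RPL17 had 4.77, 4.44 and 4.93 CPM in the SMN1-labelled and 4.99, 5.43 and 5.13 CPM in the control libraries (log2 fold change -0.14, 95% interval -0.34 to 0.06, edgeR adjusted p = 0.251). RPL7, with 33 pseudogene loci in the table, had 695, 810 and 781 CPM in the SMN1-labelled libraries and 787, 798 and 852 CPM in the control libraries (log2 fold change -0.09, edgeR adjusted p = 0.0772). It passed in 4 of the 20 alternatives, among them without SMN1-labelled library 2 (-0.14, 0.0201) and after the length and GC correction (-0.18, 0.000355). Without SMN1-labelled library 1 its log2 fold change was -0.03 (0.53) and without control library 3 it was -0.06 (0.287). RPL26 had 24.9, 27.5 and 26.4 CPM in the SMN1-labelled and 26.5, 25.1 and 28.9 CPM in the control libraries, fully overlapping, with a 95% interval of -0.14 to 0.08 for its log2 fold change. The converse case was RPL27, named after its values were seen: it had 1014, 985 and 662 CPM in the SMN1-labelled libraries and 1170, 999.9 and 1130 CPM in the control libraries. Without SMN1-labelled library 3 its log2 fold change was -0.14 (adjusted p = 0.0149), against -0.31 with it, and it was not called after the length and GC correction (-0.15, edgeR adjusted p = 0.18). The median coefficient of variation of a tested member between replicates was 2.92% in the SMN1-labelled and 3.07% in the control libraries, and that of RPL27 was among the highest in the SMN1-labelled libraries.

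Several members overlap other genes. In GENCODE v29, 9 members share exonic bases with another protein-coding gene on the same strand, and RPS10, RPL17 and RPL26 are among them. For 2 members nearly all reads of the pair stood at a read-through locus, an annotated gene that joins the member to its neighbour. Which exons those reads came from was not tested, so some may belong to the neighbour. RPS10 itself held 39 reads over the 6 libraries and RPS10-NUDT3 53013, so that 0.0735% of their sum was counted at RPS10. RPL17 held 972 and RPL17-C18orf32 80404, or 1.19% at RPL17. The read-through loci themselves were lower in the SMN1-labelled libraries: RPS10-NUDT3 stood at 240 ± 8.52 CPM in the SMN1-labelled and 303 ± 21.4 CPM in the control libraries (log2 fold change -0.34, edgeR adjusted p = 3.95e-07) and RPL17-C18orf32 at 384 ± 9.12 CPM in the SMN1-labelled and 435 ± 6.69 CPM in the control libraries (-0.18, 5.94e-05). With these reads summed into the members, a choice made after seeing the data, RPS10 and RPL17 were called lower and 74 of 77 members fell (28.2% of all genes tested were lower in that fit). The third such locus, RPL36A-HNRNPH2, went the other way, at 22.9 ± 1.08 CPM in the SMN1-labelled and 20.6 ± 0.840 CPM in the control libraries (log2 fold change 0.15, adjusted p = 0.0229), while RPL36A fell 1.23-fold.

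Processed pseudogenes, copies of these mRNAs pasted back into the genome, are a second place where reads can go. The table lists 553 pseudogene loci named after members, and they took 0.0979% ± 0.000427 of reads in the SMN1-labelled and 0.115% ± 0.00285 in the control libraries. Of the reads of members and pseudogenes together, 1.87% ± 0.00145 lay at pseudogenes in the SMN1-labelled libraries and 1.79% ± 0.0228 in the control libraries. Of 116 pseudogenes tested 43 were lower and 1 higher, with a median log2 fold change of -0.28, beside 28.2% lower and 28.0% higher over all genes tested. The share exceeded 5% for 6 tested members: RPS2 (21.5%, nearly all at RPS2P5), RPL9 (21.3%), RPL22 (18.9%), RPL26 (10.5%), RPS3A (7.68%) and RPSA (7.21%). With pseudogene reads summed into their parents 72 members were called lower (28.3% of all genes tested), and the log2 fold changes of RPS2, RPL9 and RPL22 were -0.43, -0.24 and -0.21.

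The level per gene length was far from even, although a ribosome holds 1 copy of most of the proteins. On the deposited FPKM scale the members ran from 2035 for RPL23A to 0.0817 for RPS10, averaged over the 6 libraries, with a median of 160. RPL23A, at the tunnel exit, was at 1857 ± 16.9 FPKM in the SMN1-labelled and 2213 ± 84.2 FPKM in the control libraries, and RPLP2, RPL13A and RPL5 were also among the 5 highest, at averages of 806, 732 and 688 FPKM. At the low end, above RPS10, stood RPS29 at 1.20 ± 0.0557 FPKM in the SMN1-labelled and 1.51 ± 0.133 FPKM in the control libraries and RPL17 at 1.87 ± 0.101 FPKM in the SMN1-labelled and 1.93 ± 0.0929 FPKM in the control libraries. RPS29, a small zinc-binding protein of the 40S head, fell 1.34-fold on counts in spite of its low level. The FPKM values correspond to a median length of 3436 nt per member, close to the 3119.5 nt of all annotated exons joined, so levels are per exonic length and not per length of the main mRNA. The sources used here do not say how reads that fit several places were counted, and the part of this in the levels was not tested. Across the 76 tested members the log2 fold change had little relation to control CPM (Spearman's rho -0.18).

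**Figure D4:**
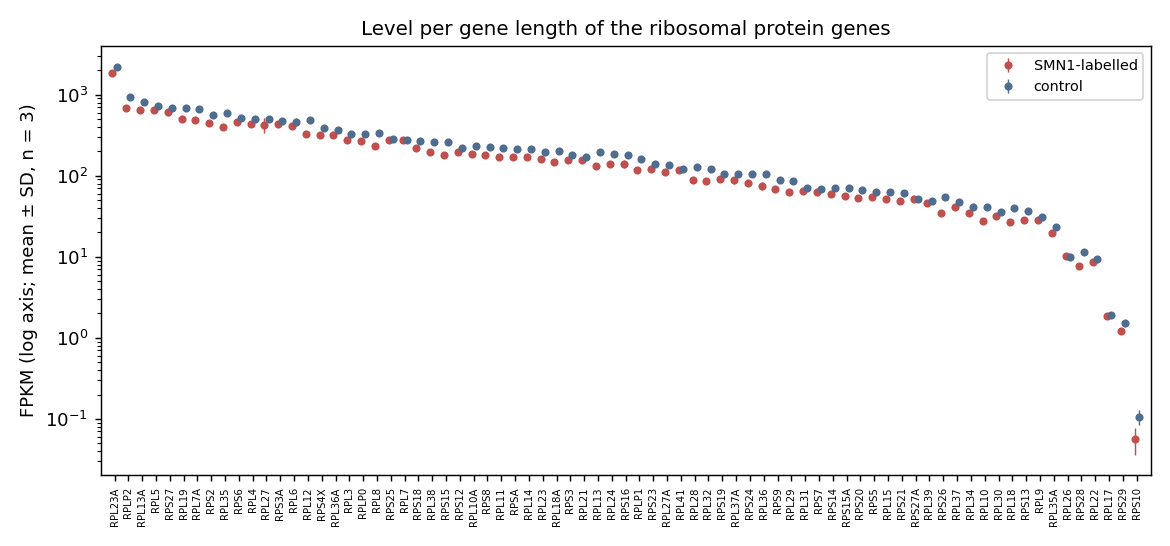
Mean FPKM with SD over 3 libraries (y axis, log scale) of 75 of the 77 members in order of level (x axis), SMN1-labelled and control. Most members lie between about the level of RPL23A at 2035 and RPL35A at 21.3, with 6 members below.

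Proteins of the ribosome that the name rule does not take fell too. RACK1, a scaffold on the 40S head, had 372, 348 and 362 CPM in the SMN1-labelled and 541, 531 and 521 CPM in the control libraries, a 1.47-fold fall (log2 fold change -0.56, edgeR adjusted p = 2.78e-12). FAU, made as a fusion with a ubiquitin-like protein, fell 1.46-fold. Both were called in each of the 20 alternative analyses, with FAU at -0.30 on the log2 scale after the length and GC correction, against -0.55 without it.

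The paralogs moved less uniformly, with 4 lower, 1 higher and 1 not called of 6 tested, beside 28.2% lower and 28.0% higher over all genes tested. After the length and GC correction 5 were lower and 1 higher, beside 22.8% and 26% of all genes tested. RPS27L, a close copy of RPS27, had 27.9, 34.1 and 31.6 CPM in the SMN1-labelled libraries and 23.0, 22.9 and 23.8 CPM in the control libraries. Every SMN1-labelled library was higher, a 1.35-fold rise (log2 fold change 0.43, edgeR adjusted p = 1.91e-06; 0.22 and 0.00351 after the length and GC correction), whereas RPS27 itself stood at 643 ± 72.4 CPM in the SMN1-labelled and 773 ± 31.8 CPM in the control libraries and fell 1.20-fold (log2 fold change -0.27, and -0.16 after the correction). The RefSeq start of RPS27L printed above holds no such pyrimidine run, while that of RPS27 begins with one. The windows of RPS29 and RPS4X held no such run either, and both genes were called lower. Any part of the run in these directions was not tested. RPL39L, RPL36AL and RPL26L1 fell 1.35-, 1.32- and 1.25-fold. After the correction they were still called, with RPL39L at -0.17 and RPL26L1 at -0.14 in place of -0.43 and -0.32 on the log2 scale. RPL22L1 fell 1.19-fold (adjusted p = 0.00828), a call lost without control library 2 (0.0501) or SMN1-labelled library 2 (0.0577). RPL7L1, a nucleolar assembly factor rather than a ribosome component, was at 147 ± 0.903 CPM in the SMN1-labelled and 141 ± 4.26 CPM in the control libraries and did not pass (log2 fold change 0.06, adjusted p = 0.135), and it was called lower after the length and GC correction (-0.10, 0.0125). RPL3L, the muscle form of RPL3, had too few reads to test. The difference between a member and its paralog was not tested.

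**Figure D5:**
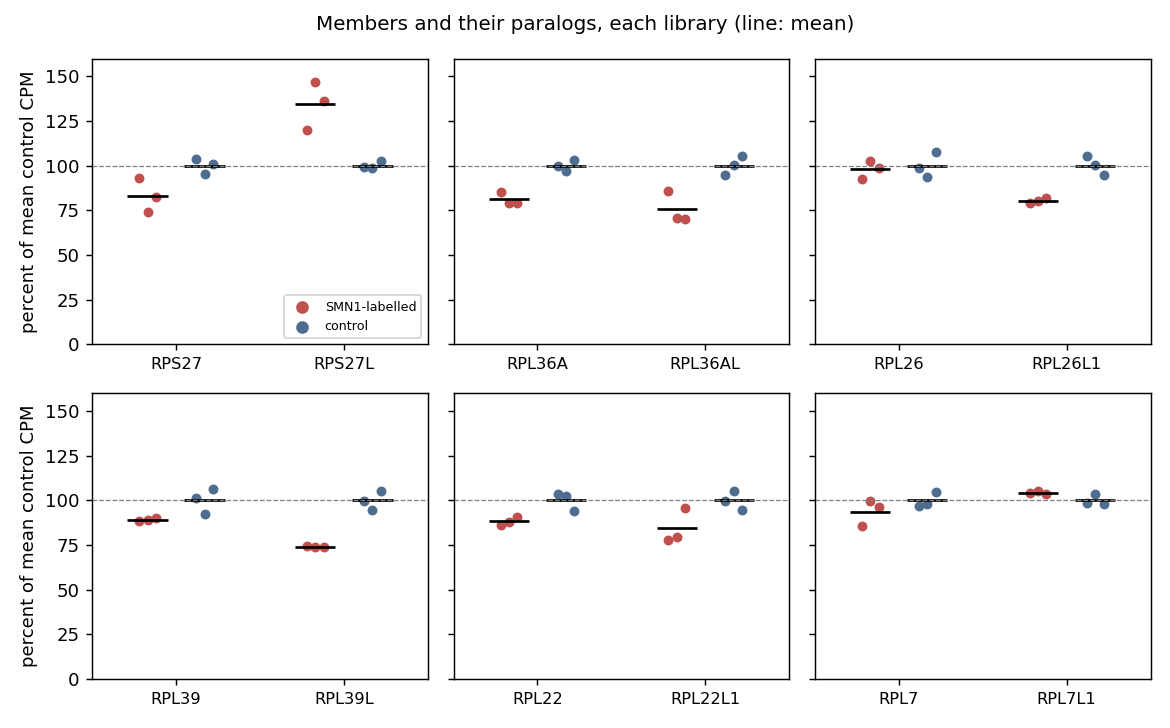
CPM as percent of the mean control CPM (y axis) for 6 members and their paralogs, each of the 3 SMN1-labelled and 3 control libraries shown with the group mean as a line. RPS27L is above the control in all 3 SMN1-labelled libraries while RPS27 is below it.

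Other mRNAs known as TOP mRNAs moved in both directions. Of 23 tested, 14 were lower and 7 higher, with a median log2 fold change of -0.15, where 28.2% of all genes tested were lower and 28.0% higher. The difference of this list from the ribosomal protein genes was not tested. VIM, the intermediate filament vimentin and also a mesenchymal gene, fell 2.04-fold, and the window around its RefSeq start held no such pyrimidine run. The translation factor subunits EEF1D and EIF3K fell with log2 fold changes of -0.48 and -0.45 and the splicing factor HNRNPA1 with -0.35. Of the 7 that were higher, EIF4B rose with a log2 fold change of 0.32, and stood at 0.19 after the length and GC correction. After the length and GC correction EIF3K stood at -0.27 and HNRNPA1 at -0.53, both still called. EEF1A1 had 5105, 5430 and 5295 CPM in the SMN1-labelled libraries and 5076, 5346 and 5376 CPM in the control libraries, overlapping throughout (log2 fold change 0.00296, edgeR adjusted p = 0.949). After the length and GC correction EEF1A1 was called lower (-0.13, edgeR adjusted p = 0.00237). In that fit the list stood at 14 lower and 3 higher of 23, beside 22.8% lower and 26% higher over all genes tested.

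Among genes of mTORC1 and of its outputs on TOP mRNAs, 4 of 16 were lower and 7 higher, against 28.2% lower and 28.0% higher over all genes tested, so the lower count is near the share of all genes. EIF4EBP1, the repressor of cap-dependent translation that mTORC1 switches off, fell 1.59-fold, with 252 ± 8.60 CPM in the SMN1-labelled and 399 ± 17.2 CPM in the control libraries, and the mTORC1 subunit MLST8 fell with a log2 fold change of -0.36. Both were nearer to 0 after the length and GC correction, EIF4EBP1 at -0.25 and MLST8 at -0.14, and still called. TSC1, which restrains mTORC1, and the cap-binding protein EIF4E rose with log2 fold changes of 0.37 and 0.32, and EIF4E was no longer called after the length and GC correction (edgeR adjusted p = 0.188). LARP1, at 295 ± 3.74 CPM in the SMN1-labelled and 269 ± 6.02 CPM in the control libraries, rose with a log2 fold change of 0.14, and MTOR and RPTOR did not pass. After the correction 2 of the 16 were lower and 5 higher, against 22.8% and 26% of all genes tested, RPTOR being 1 of the 5 (0.11, edgeR adjusted p = 0.0133). Of 13 chaperones and importers of ribosomal proteins 7 rose and 2 fell, beside 28.0% higher and 28.2% lower over all genes tested. The importins TNPO1, IPO7 and IPO5 rose with log2 fold changes of 0.71, 0.50 and 0.23, which became 0.46, 0.25 and -0.02 after the correction, IPO5 no longer being called (adjusted p = 0.627). In that fit 5 of the 13 were higher and 2 lower, beside 26% and 22.8% of all genes tested.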

How the data were processed

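Stranded mRNA libraries were sequenced as paired 150 nt reads, per the labels' protocols. The submitters' processing notes name the build GRCh38 and the tools HISAT2 and DESeq2. For the annotation, the counting tool, the strand setting and reads that fit several places: not given in the sources used here. The deposited table of whole-number read counts covers 28862 genes, and the deposited FPKM values cover 28501 genes. Samples were grouped by title and matched to columns by name.

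Counts were tested with edgeR 4.0.16 under R 4.3.3 (default expression filter, TMM factors, group as the only term, two-sided quasi-likelihood test, Benjamini-Hochberg adjustment, calls at 0.05). The standard error was taken as the size of the log2 fold change divided by the root of the F statistic, and a 95% interval as 1.96 of these to each side. The steps were tested on simulated counts. Replicates of a group stood apart beyond counting error (chi-square over its degrees of freedom 2.51 to 4.36), so each counted as 1 replicate. The depth gives a floor of 3 reads, or 0.0745 to 0.0988 CPM.

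Alternatives were DESeq2 1.42.0, limma-voom (limma 3.58.1), other scaling and filters, the replicate block, each library left out, limma on log2(FPKM + 0.1) or log2(FPKM + 1), splines of gene length and GC content (GENCODE v29), pseudogene reads summed into parents and, added after seeing the data, read-through reads summed into members. FPKM fold changes carry the pseudocount, on the log2(value + pseudocount) scale, which makes them too small for low genes. Members and lists were chosen with earlier results of these data known. The genes named are the members called higher, not called or untested, the extremes of fold change and of FPKM, the structural groups, subunits and paralogs outside the name rule, and up to 4 called genes per other list in order of p. Some genes that this rule names are left out here. Other genes were named after their values were seen. Promoter sequences are from RefSeq, GRCh38.p14.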

Additional observations from a re-analysis of the deposited data

How the results depend on the processing

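The number of members called lower lay between 60 and 74 over the 20 alternatives, none was called higher in any, and 57 of the 72 were called lower in every one. DESeq2 called 68 lower. Leaving out 1 library gave 70 to 73 lower calls, medians of -0.40 to -0.38 on the log2 scale and a difference in the share of reads of -1.202 to -1.124 percentage points, against -1.17 with all libraries. The replicate numbers did not pair the samples: deviations of same-numbered libraries correlated at -0.018 to 0.012, and the fit with the replicate number as a block called 71 members lower, with a median of -0.39. The median moved to -0.30 on log2(FPKM + 0.1), to -0.30 and -0.29 on log2(FPKM + 1) with and without a filter, and to -0.33 after the length and GC correction. On FPKM the median of all genes tested was itself 0.086 and 0.061 with the filter and 0.0042 without it. The share differed by -0.656 percentage points of summed FPKM and by -1.32 of reads outside the mitochondrial genome. Under the length and GC correction RPS25 (0.0683), RPL41 (0.0339), RPL7L1 (-0.102) and IPO5 (-0.0204) changed sign, and so did EEF1A1 (-0.13) and MDM4 (-0.17) among the genes named and others of the lists. The cause of these shifts was not tested. RPL17 and RPS10 rest on too few reads of their own for a statement about those mRNAs.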
